A study of Mus musculus with 6 samples.

Results

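Keratins are the intermediate filament proteins of epithelial cells. Type I (acidic) and type II (basic) keratins pair to build the filament: Krt8, type II, with Krt18, type I, in simple epithelia, and Krt5, type II, with Krt14, type I, in the basal layer of stratified and glandular epithelia. In the mammary gland Krt8, Krt18 and Krt19 mark luminal cells, Krt5 and Krt14 mark basal or myoepithelial cells, and Krt7 (type II) is a keratin of ducts. Krt15 and Krt17 are type I keratins of basal and of stressed or wounded epithelium, and Krt20 is a type I keratin of intestinal and urothelial cells.

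The 9 keratins Krt5, Krt7, Krt8, Krt14, Krt15, Krt17, Krt18, Krt19 and Krt20 were chosen by name and found by symbol among 31053 genes counted, of which 53 are keratins. Droplet single-cell RNA-seq was run on 2 mouse tissues. Kidneys came from C57BL/6 mice aged 12 weeks, male per the study's methods. Mammary tumors came from MMTV-PyMT mice aged 10 weeks, female per the methods, in which the mouse mammary tumor virus promoter drives the polyoma middle T oncogene in mammary epithelium, so the tumor epithelium is a model driven by that oncogene. Each tissue gave 3 libraries: a control digested conventionally for 60 min, and 2 from a microfluidic tissue processing platform, labelled 15 min and 60 min. Per the study's reporting summary, the conditions of a replicate used tissue of the same mouse and sequencing had 1 replicate, so the libraries of a tissue share a source mouse. All tissue was minced and digested with collagenase, and live cells were sorted as SytoxBlue-negative. Per the methods, the platform samples were successive collection intervals, so the 60 min platform library holds cells from the tissue that remained after 15 min. Each condition was sampled by 1 library, so differences between conditions have no replicate check and are given with neither test nor p-value. Intervals are exact Poisson (for UMIs) or exact binomial (for shares of cells) 95% intervals and cover counting error only. Values of 3 libraries are given throughout in the order control, platform 15 min, platform 60 min.

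After the study's filters on genes and mitochondrial share, 5736, 5802 and 6024 tumor cells and 5886, 8390 and 9936 kidney cells remained. Median depth ranged from 8210.5 to 9476 unique molecular identifiers (UMIs) per tumor cell and from 4583 to 6611.5 per kidney cell. The kidney platform 15 min library stood apart, with a median mitochondrial share of 20.4% against 7.38% and 8.59% in the other kidney libraries. The libraries shared 16 to 21 cell barcodes in the tumor and 53 to 211 in the kidney. A level is given as CPM, the UMIs of a gene per 1000000 UMIs of the summed cells, and since a UMI stands for 1 transcript tag it needs no correction for gene length.

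Cells were assigned by marker genes among which there was no keratin. Tumor cells with at least 10 UMIs from at least 3 of 8 epithelial markers, and of no other class, were epithelial-gated (8936 cells). They were split by the summed UMIs of 7 basal markers (Trp63, Oxtr, Acta2, Mylk, Cnn1, Actg2 and Myh11): 7970 cells with 0 were luminal-gated, 303 with 2 or more were basal-gated, and 663 with 1 were set between. The basal gate is a range and not a type, since 156 of its 303 cells had exactly 2 such UMIs and 58 exactly 3. Its marker UMIs were 890 of Acta2, 471 of Trp63, 219 of Oxtr and 185 of Mylk, with 15 of Cnn1, 5 of Myh11 and 4 of Actg2, so the last 3 contractile genes were near 0. By library the luminal gate held 2694, 3322 and 1954 cells and the basal gate 54, 118 and 131. Doublets of a luminal and a basal cell cannot be told apart from single basal-gated cells. Leukocyte-gated cells (1594, 1337 and 1985), which should lack keratins, were read as a guide to free RNA, which was not measured directly. Luminal-gated cells were also described by gates on other marker lists, which may overlap: secretory-gated (milk genes such as Csn2 and Wap, 3194 cells), aqp5-gated (Aqp5, Prom1 and others, 2918), kallikrein-gated (Klk6, Klk7, Klk8, Klk10, Klk11 and Sbsn, 365), interferon-gated (888) and proliferating-gated (126). A secretory and an aqp5 gate call was shared by 1652 cells.

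Krt8 and Krt18 are neighbours. On GRCm38, Krt8 lies at chr15:101996698-102004482 on the minus strand and Krt18 at chr15:102028180-102032027 on the plus strand, so the genes point away from each other with 23697 bases between them. The other type II keratins, Krt5 and Krt7, are also on chromosome 15, and the type I keratins Krt14, Krt15, Krt17, Krt19 and Krt20 on chromosome 11. None of the 511 stretches of 90 bases in the last 600 bases of each of the 9 transcripts occurred in a transcript of another gene. Krt5, Krt7 and Krt8 overlap genes on the opposite strand (Gm44323, Gm671 and Gm36026). The 100 bases just upstream of Krt8 and Krt18 are shown because the levels of this pair ran together in the tumor and in principal cells and apart in the proximal tubule (RefSeq promoter table, GRCm38.p6, 5′ to 3′ on the gene's strand; Krt8 at chr15:102004483-102004582, minus, and Krt18 at chr15:102028080-102028179, plus).
Krt8: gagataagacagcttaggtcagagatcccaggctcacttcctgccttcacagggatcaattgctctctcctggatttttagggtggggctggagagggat
Krt18: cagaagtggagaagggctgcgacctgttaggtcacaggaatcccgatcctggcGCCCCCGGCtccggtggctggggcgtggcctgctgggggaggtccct
The capitals mark the one match to GCCNNNGGC, the letters known to be bound by AP-2 factors, which read the same on both strands. Neither window held TATAAA or GGGCGG on either strand. Over the 250 bases before the start of 32851 promoters, 13.7% held GCCNNNGGC, 12.4% TATAAA and 32.7% GGGCGG. A match is a description of these letters and not a binding site.

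In the tumor, Krt18 and Krt8 were the most abundant of the 9 keratins in luminal-gated cells, followed by Krt19 and Krt7. Krt18 was at 3833, 2295 and 2546 CPM in luminal-gated cells of the control, platform 15 min and platform 60 min libraries. Krt8 was at 3306, 1559 and 1987 CPM, Krt19 at 478, 443 and 425 CPM and Krt7 at 174, 204 and 209 CPM. The order Krt18, Krt8, Krt19, Krt7 was the same in each of the 3 libraries, and the counting intervals of neighbours in it did not overlap. The basal keratins followed, although the intervals of Krt7 and Krt14 overlapped at 60 min: Krt14 was at 95.5, 95.6 and 197 CPM and Krt17 at 29.0, 25.1 and 67.5 CPM, while Krt5 was at 1.83, 0.352 and 2.20 CPM and Krt15 at 0.950, 0.205 and 0.951 CPM. Krt20 had 0 UMIs in luminal-gated cells, and its 3 UMIs in the tumor were all in endothelial-gated cells.

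Leukocyte-gated cells of the same libraries held Krt18 at 43.9, 29.8 and 18.4 CPM, Krt8 at 38.8, 21.7 and 17.7 CPM, Krt19 at 7.11, 6.76 and 4.23 CPM and Krt14 at 1.02, 1.46 and 8.92 CPM. Genes were compared between sums where they had at least 20 UMIs over the sums compared. Of 8 keratins so tested, 6 (Krt7, Krt8, Krt14, Krt17, Krt18 and Krt19) were at least 2-fold higher in luminal- than in leukocyte-gated cells in each of the 3 libraries, beside 22.5% of 15469 genes tested. Krt5 and Krt15 were not. In basal-gated cells these 6 and Krt5 passed, beside 16.3% of genes. The share of cells with a UMI, after each cell was thinned to 1000 UMIs, was 82.1%, 78.2% and 74.0% for Krt18 and 72.6%, 64.6% and 64.4% for Krt8 in luminal-gated cells, against 5.55%, 3.45% and 1.87% and 5.24%, 2.77% and 2.22% in leukocyte-gated cells.

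**Figure D1:**
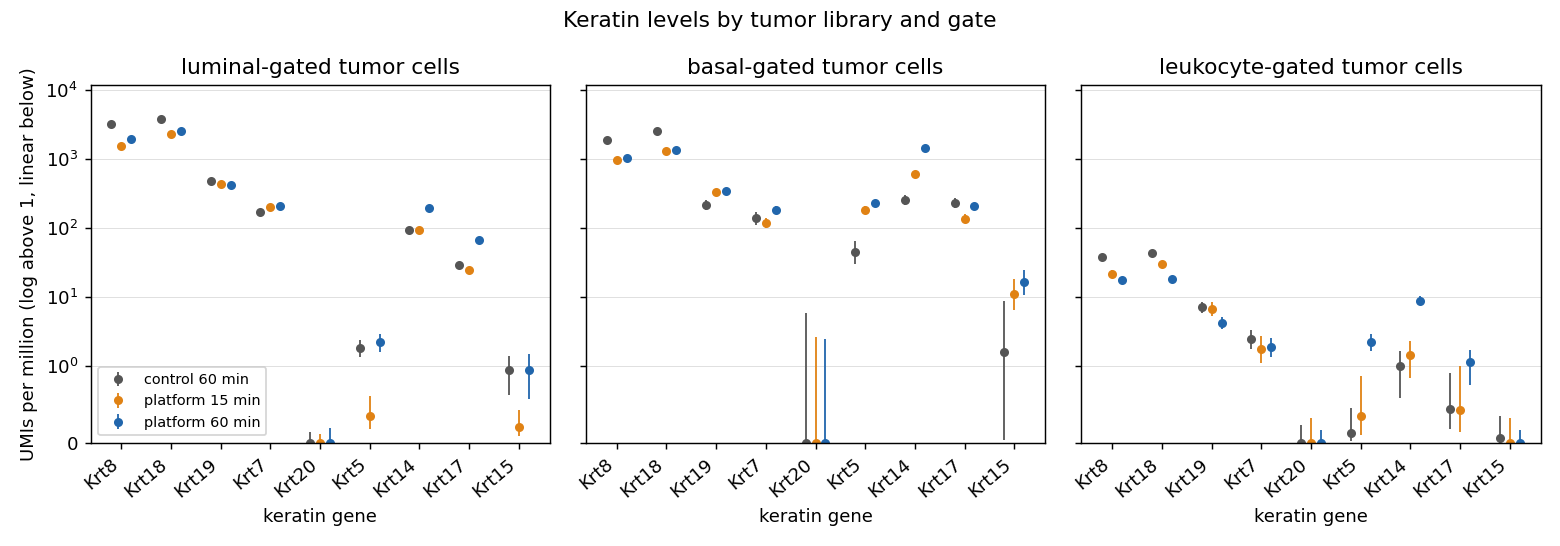
CPM of the 9 keratins (log scale above 1, linear below) in luminal-, basal- and leukocyte-gated tumor cells of the control (grey), platform 15 min (orange) and platform 60 min (blue) libraries, with 95% Poisson intervals as bars. Krt8 is at 3306, 1559 and 1987 CPM in luminal- and 1895, 971 and 1039 CPM in basal-gated cells, and Krt5 is at 45.7, 187 and 229 CPM in basal-gated against 1.83, 0.352 and 2.20 CPM in luminal-gated cells.

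Basal-gated cells held more of the basal keratins and no keratin passed 2-fold lower. Krt5 was at 45.7, 187 and 229 CPM in basal-gated cells, 25, 531 and 104 times the level in luminal-gated cells of the same library. Krt14 was at 257, 619 and 1449 CPM, 2.69, 6.48 and 7.35 times the luminal level. Krt17 was at 235, 138 and 208 CPM, 8.10, 5.52 and 3.09 times the luminal level. These 3 of 8 keratins tested were at least 2-fold higher in each library, beside 1.54% of 14184 genes higher and 0.289% lower. Krt15 had 1, 16 and 25 UMIs in basal-gated cells (1.57, 11.3 and 16.7 CPM).

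The luminal keratins were lower in basal-gated cells, by less than 2-fold but for Krt19 in the control. The ratios of basal- to luminal-gated CPM were 0.573, 0.623 and 0.523 for Krt8, 0.675, 0.574 and 0.540 for Krt18, 0.461, 0.744 and 0.828 for Krt19 and 0.798, 0.585 and 0.893 for Krt7. All 12 values were below 1. Krt8 and Krt18 stayed the most abundant keratins of this gate in the control and 15 min libraries, at 1895 and 2589 CPM in the control, whereas in the 60 min library Krt14 was at 1449 CPM, Krt18 at 1375 CPM and Krt8 at 1039 CPM. In the control library 1 basal-gated cell held 61 of the 163 Krt14 UMIs. Without the cell with the most UMIs in each sum, Krt5 and Krt17 still passed 2-fold in each library and the smallest log2 ratio of Krt14 moved from 1.43 to 0.93. With Lgr6 among the basal markers, which is in 1729 of the 8936 epithelial-gated cells, Krt5 alone passed.

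A further 75 cells (12, 9 and 54 by library) had at least 2 UMIs of the basal markers but reached the minimum of no class list. Their median depths were 5894.5, 3933 and 6125.5 UMIs, and together they held 111 Trp63 and 471 Acta2 UMIs. Krt14 was at 2635, 1564 and 5428 CPM in these cells, above its basal-gated level in each library. Krt5 was at 998, 1292 and 1511 CPM, likewise above it. Krt8 was at 186, 408 and 371 CPM and Krt18 at 346, 385 and 177 CPM, below both epithelial gates. The median of epithelial marker UMIs was 6 in these cells and 37 in basal-gated cells, which had to reach the epithelial minimum. The Krt8 and Krt18 levels of the basal gate, and its share of cells with basal and luminal keratins, therefore describe only basal-marker cells rich in epithelial markers. After thinning, Krt5 and Krt14 were seen in the same cell in 33.3%, 11.1% and 54.7% of these cells, against 3.70%, 7.63% and 13.7% of basal-gated cells.

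Krt14 and Krt17 in luminal-gated cells sat in few cells. The 5% of luminal-gated cells with the most Krt14 held 84.3% of its UMIs over the 3 libraries, and for Krt17 this share was 100%, for Krt19 57.6%, for Krt8 34.1% and for Krt18 28.0%. The median luminal-gated cell had 0 Krt14 UMIs, and 1 cell of the 60 min library had 695 of the 3939 Krt14 UMIs there. The luminal Krt5 UMIs were as uneven, with 45 of the 50 in the control library in 1 cell. The thinned share of luminal-gated cells with Krt14 was 4.16%, 4.70% and 6.65%.

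Kallikrein-gated cells, which express the kallikrein serine protease genes of cornifying and secretory epithelia, were the luminal-gated cells richest in Krt14, Krt7 and Krt19. Krt14 was at 859.6, 706 and 1559.6 CPM, 11.9, 13.8 and 14.0 times the level in the other luminal-gated cells of each library. Krt7 was at 1228, 956 and 1109.7 CPM, 8.70, 6.41 and 7.29 times that level. Krt17 was at 148, 106 and 512 CPM (5.82, 5.51 and 12.9 times) and Krt19 at 1107, 1158 and 1101 CPM (2.41, 2.96 and 2.88 times). These 4 keratins were at least 2-fold higher in each library, beside 4.60% of 14082 genes, and the same 4 passed without the cell with the most UMIs. The ratios were 1.56, 1.49 and 1.82 for Krt8 and 1.20, 1.06 and 1.16 for Krt18.

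Krt14 in these cells came without its usual partner. Krt5 had 1 UMI in all 365 kallikrein-gated cells. After thinning, 24.2%, 18% and 21.7% of kallikrein-gated cells held Krt14 without Krt5, and 0 of 62, 0 of 211 and 0 of 92 held both. A floor of 3 cells allows shares of up to 4.84%, 1.42% and 3.26%, and the exact binomial upper bounds are 5.78%, 1.73% and 3.93%, both of cells with UMIs of both genes at this thinned depth. In basal-gated cells 5.56%, 6.78% and 27.5% held Krt14 without Krt5, and in luminal-gated cells as a whole 4.12%, 4.70% and 6.55% did. In leukocyte-gated cells the shares were 0.189%, 0.150% and 0.605%.

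**Figure D2:**
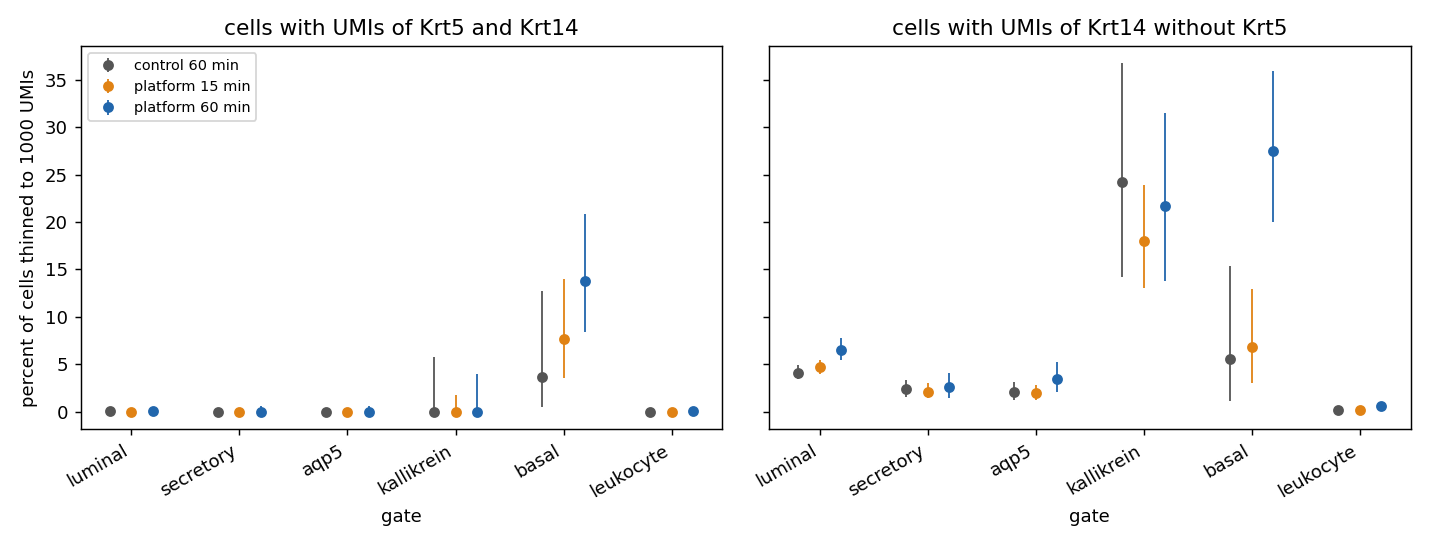
Percent of cells, each thinned to 1000 UMIs, with both Krt5 and Krt14 and with Krt14 but no Krt5, by tumor gate and library, with exact 95% binomial intervals. Cells with both appear in the basal gate (3.70%, 7.63% and 13.7%) and in none of the kallikrein-gated cells, of which 24.2%, 18% and 21.7% held Krt14 alone.

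Secretory- and aqp5-gated cells lay on the other side. Krt7, Krt14 and Krt17 were at least 2-fold lower than in the other luminal-gated cells in each library in both gates, as was Krt5, whose luminal level did not pass 2-fold over leukocyte-gated cells. In secretory-gated cells the ratios were 0.285, 0.234 and 0.183 for Krt14, 0.339, 0.236 and 0.289 for Krt7 and 0.0988, 0.0143 and 0.0170 for Krt17, beside 1.76% of genes lower, and none was higher (beside 0.213%). In aqp5-gated cells they were 0.234, 0.259 and 0.194 for Krt14, 0.319, 0.275 and 0.359 for Krt7 and 0.0330, 0.0151 and 0.0101 for Krt17, beside 1.85%, and none was higher (beside 1.10%). The gates share 1652 cells, and the comparison group of each holds the kallikrein-gated cells. When cells were thinned before gating, 0 keratins passed in secretory-gated cells. Krt8 ratios were 0.925, 0.729 and 0.763 in secretory-gated and 0.854, 0.786 and 1.04 in aqp5-gated cells. In proliferating-gated cells Krt18 was lower in each library (0.342, 0.428 and 0.389 times the other luminal-gated cells, beside 2.09%) and none was higher (beside 4.62%), and in interferon-gated cells no keratin passed in either direction (beside 0.760% higher and 0.263% lower).

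**Figure D3:**
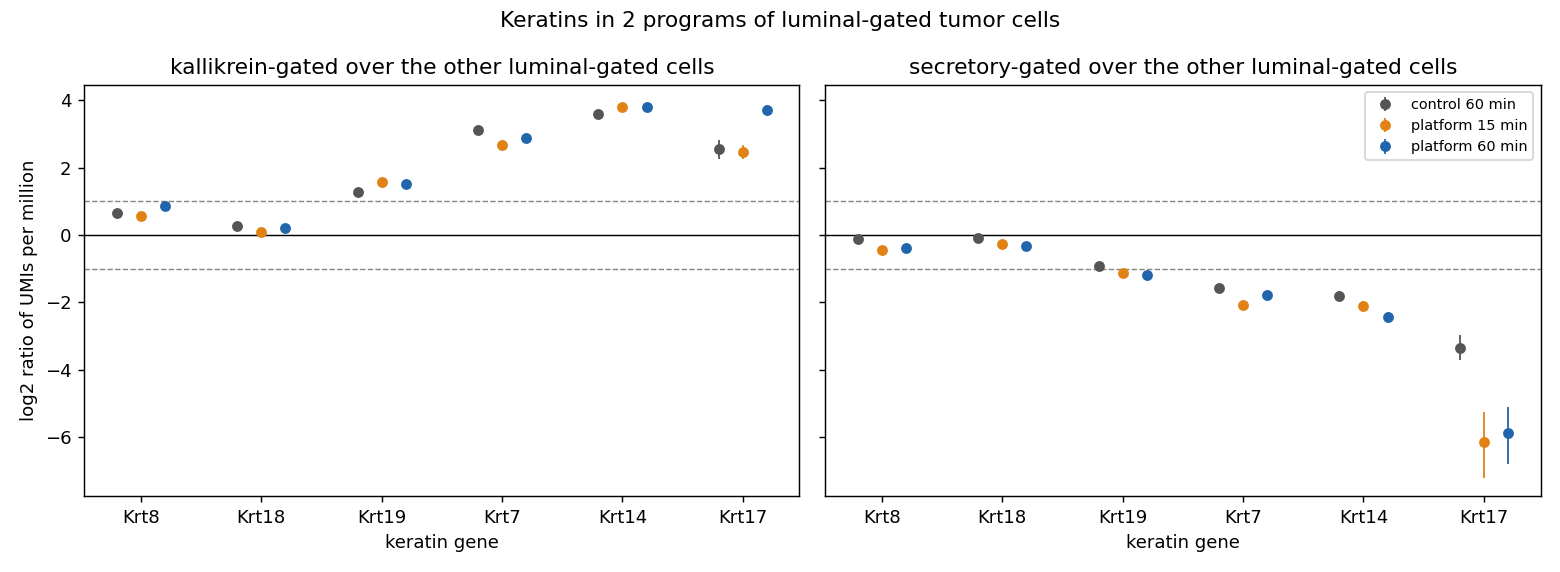
Log2 ratio of CPM in kallikrein-gated (left) and secretory-gated (right) cells over the other luminal-gated cells, by keratin and tumor library, with 95% intervals and dashed lines at 2-fold. Krt7, Krt14, Krt17 and Krt19 lie above the upper line in the kallikrein-gated cells, and Krt7, Krt14 and Krt17 below the lower line in the secretory-gated cells.

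Single cells that held a basal keratin (Krt5 or Krt14) together with a luminal one (Krt8 or Krt18) were counted after thinning. They made up 3.90%, 4.12% and 6.19% of luminal-gated, 11.1%, 11% and 23.7% of basal-gated and 24.2%, 15.6% and 17.4% of kallikrein-gated cells. In leukocyte-gated cells the shares were 0.0631%, 0% and 0.0504% (1, 0 and 1 cells). Krt8 and Krt18 were seen together in 62.9%, 53.2% and 51.3% of luminal-gated cells and 0.568%, 0.0749% and 0.0504% of leukocyte-gated cells.

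The control and platform libraries were then set side by side. In whole tumor libraries Krt5 was at 3.49, 6.47 and 21.2 CPM and Krt14 at 67.7, 82.4 and 168 CPM, so that the platform 60 min library stood at 6.08 (95% interval 5.19 to 7.16) and 2.48 (95% interval 2.39 to 2.58) times the control. Krt8 was at 1975, 1091 and 814 CPM and Krt18 at 2308, 1609.9 and 1035 CPM, with 60 min ratios of 0.412 (95% interval 0.408 to 0.417) and 0.449 (95% interval 0.444 to 0.453). These 4 of 8 keratins tested passed 2-fold at 60 min, beside 9.09% of genes higher and 2.72% lower, and none did at 15 min (3.57% and 3.80%). Krt19 was at 291, 308 and 177 CPM, Krt7 at 107, 139 and 88.1 CPM, Krt17 at 20.7, 19.9 and 37.7 CPM and Krt15 at 0.592, 0.821 and 1.03 CPM. Fewer cells of a type and less RNA per cell cannot be told apart in a whole library. The luminal gate held 2694 of 5736, 3322 of 5802 and 1954 of 6024 cells.

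Within luminal-gated cells Krt8 was lower in both platform libraries. The ratio to control was 0.471 (95% interval 0.466 to 0.477) at 15 min and 0.601 (95% interval 0.594 to 0.608) at 60 min. For Krt18 it was 0.599 (95% interval 0.593 to 0.604) and 0.664 (95% interval 0.657 to 0.671). The median luminal-gated cell had 13.9, 10.4 and 10.0 Krt8 UMIs per 10000 UMIs, and the 90th percentile cell had 73.4, 26.8 and 39.1, so the control stood apart more in its highest cells than at the median. At 15 min 3 of 8 keratins passed 2-fold lower (Krt5, Krt8 and Krt15), beside 2.74% of genes, and none higher (beside 2.64%). The Krt8 call was not kept after thinning (log2 ratio -0.91). With the highest Krt5 cell of each library left out (45 UMIs in the control), the log2 ratio was 0.36 instead of -2.38. Krt8 and Krt18 in leukocyte-gated cells, read as a guide to free RNA, were also lower on the platform (38.8, 21.7 and 17.7 CPM for Krt8). The part of free RNA in the luminal difference was not tested.

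At 60 min Krt14 and Krt17 passed 2-fold higher in luminal-gated cells, at 2.07 (95% interval 1.96 to 2.17) and 2.33 (95% interval 2.13 to 2.54) times the control, beside 1.85% of genes, and no keratin passed lower (1.49%). With the highest Krt14 cell of each library left out (695 UMIs at 60 min), the log2 ratio was 0.92 and no longer passed. Krt14 in leukocyte-gated cells was at 1.02, 1.46 and 8.92 CPM and so was also highest at 60 min, and its part was not tested. Kallikrein-gated cells, which were richer in Krt14 and Krt17, made up 62 of 2694, 211 of 3322 and 92 of 1954 luminal-gated cells. The make-up of the luminal gate thus differed between libraries, and its part in these ratios was not tested. Krt7 (ratios 1.17 and 1.20) and Krt19 (0.927 and 0.889) were close to the control at both times.

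In basal-gated cells Krt5 and Krt14 were higher in both platform libraries. Krt5 stood at 4.09 (95% interval 2.78 to 6.23) times the control at 15 min and 5.00 (95% interval 3.42 to 7.59) times at 60 min. Krt14 stood at 2.41 (95% interval 2.04 to 2.87) and 5.65 (95% interval 4.81 to 6.66) times. Both passed 2-fold higher at 15 min, beside 8.37% of genes, and at 60 min together with Krt15, which had 1, 16 and 25 UMIs, beside 7.56%. No keratin passed lower (beside 2.12% at 15 min and 2.83% at 60 min). Krt8 was at 0.512 and 0.548 times the control and Krt18 at 0.509 and 0.531, while Krt19 was at 1.5 (95% interval 1.24 to 1.82) and 1.60 (95% interval 1.32 to 1.94). The control side of these ratios rests on 54 cells. The basal gate depends on a threshold of 2 UMIs, and when the 75 ungated cells were added no keratin passed at 15 min.

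Among other genes of the keratin network, a list of 31 genes for desmosomes, hemidesmosomes and the basement membrane, other intermediate filaments and keratinization, 25 had enough UMIs to compare basal- with luminal-gated cells. Of these, 3 were at least 2-fold higher in each library and 0 lower: Col17a1, the collagen of hemidesmosomes (474, 216 and 325 times), Lama3, a chain of laminin 332 (15.1, 8.41 and 19.3 times), and Perp, a desmosomal membrane protein (2.28, 3.08 and 4.75 times). Over all genes tested 1.54% were higher and 0.289% lower in this comparison. In kallikrein-gated cells 7 of 11 desmosome genes tested were higher (Dsp, Pkp1, Dsg3, Dsc2, Ppl, Evpl and Perp) and 0 of 7 hemidesmosome and basement membrane genes, beside 4.60% of all genes, and none of the 24 network genes tested was lower (beside 2.78%). Desmoplakin, Dsp, which ties keratin filaments to the desmosome, stood at 4.80, 3.33 and 4.57 times the other luminal-gated cells, the desmoglein Dsg3 at 65.3, 19.1 and 14.2 times and the envelope protein Evpl at 8.52, 7.99 and 11 times. In secretory-gated cells 4 of 24 were lower (Pkp1, Dsg3, Evpl and Lama3, beside 1.76% of all genes), and in aqp5-gated cells 5 of 24 (the same 4 and Lamb3, beside 1.85%). Between luminal- and leukocyte-gated cells 16 of 25 were higher and 2 lower, beside 22.5% and 15.7% of all genes. Those lower were vimentin, Vim (0.0205, 0.0338 and 0.0395 times), and lamin B1, Lmnb1 (0.0704, 0.139 and 0.110 times).

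The network list was also read in the platform libraries. In luminal-gated cells 2 of 24 genes tested were higher and 1 lower at 15 min, beside 2.64% and 2.74% of all genes, and 2 of 23 higher and 0 lower at 60 min, beside 1.85% and 1.49%. Sprr1a, a cornified envelope precursor, was at 8.56 times the control at 15 min and 5.02 times at 60 min, Dsg3 at 2.76 and 2.59 times, and lamin A/C, Lmna, at 0.320 times at 15 min. Dsg3 was also higher in kallikrein-gated cells, whose share of the luminal gate differed between libraries, and the part of this make-up was not tested. In basal-gated cells 2 of 17 were higher at 15 min, beside 8.37% of all genes. These were Dsp (3.09 times) and the hemidesmosome integrin Itgb4 (2.16 times). Lmna was lower (0.485 times, beside 2.12%). At 60 min 5 of 19 were higher and 1 lower, beside 7.56% and 2.83%: Vim at 3.13, Col17a1 at 2.82, Dsp at 2.69, Itgb4 at 2.38 and the plakin Dst at 2.15 times the control, and periplakin, Ppl, at 0.467 times.

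The genes whose pattern was most like each keratin were taken by Pearson correlation of log2(CPM + 1) over the 14 tumor sums of a gate and library with at least 50 cells. These sums share libraries and range from epithelial to leukocyte cells, so the values are descriptions. Krt18 was most closely followed by Plet1, Smim22 and Tpd52l1 (r 0.992 to 0.989) and Krt8 by Rab25, Plet1 and Lcn2 (r 0.989 to 0.987). The others were Krt19 by Cd164l2, Slc5a8 and Muc15 (r 0.992 to 0.991), Krt7 by Cxadr, Klc3 and Tfap2b (r 0.994 to 0.992), Krt14 by Anxa8, Perp and Slc38a3 (r 0.967 to 0.959), Krt17 by Lmod1, C530043A13Rik and Ggt1 (r 0.977 to 0.975), Krt5 by Chad, Otud7a and Slc39a4 (r 0.913 to 0.905) and Krt15 by Slc39a4, Otud7a and Chad (r 0.920 to 0.918). Krt15 passed 1 CPM in 3 of the 14 sums and Krt20 in 0, so for Krt20 the likeness to Sf3a3, Zcrb1 and Psmd11 describes too few UMIs to be read.

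Of the 44 other keratin genes, those with the most UMIs in the kept tumor cells were Krt10 (2003 UMIs), Krt80 (841), Krt23 (771), Krt16 (770) and Krt83 (586). Krt10, the type I keratin of differentiated epidermis, was highest in fibroblast-gated cells (24.9 CPM). Krt16, a partner of the wound keratins, was highest in kallikrein-gated cells at 141 CPM, and Krt80 (52.1 CPM) and Krt23 (27.0 CPM) were also highest there.

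The kidney gave a different set. Krt5, Krt14 and Krt17 had 0 UMIs in all 24212 kept kidney cells, Krt15 had 1 UMI and Krt20 had 16, of which 15 were in proximal tubule-gated cells. Krt19 had 95 UMIs, 64 of them in 4 urothelial-gated cells. The keratins of tubule cells were Krt8, Krt18 and Krt7. Cells were gated by segment markers as proximal tubule (2230, 6852 and 2353 cells), thick ascending limb (79, 68 and 307), distal convoluted tubule (23, 13 and 51), and principal (107, 7 and 162) and intercalated cells (45, 18 and 45) of the collecting duct. Leukocyte-gated cells numbered 1484, 532 and 2741.

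Krt8 in proximal tubule-gated cells came nearly without Krt18. Krt8 was at 113, 82.9 and 103 CPM, against 4.07, 0.793 and 5.24 CPM in leukocyte-gated cells, and it alone of the keratins tested was at least 2-fold higher than in leukocyte-gated cells in each library, beside 18.5% of genes. None was lower (beside 29.7%). When cells were thinned before gating, Krt8 no longer passed in each library. Krt7 was at 1.56, 0.127 and 2.01 CPM, below the 2.25, 0.397 and 2.74 CPM of leukocyte-gated cells. Krt18 was at 0.899, 0.272 and 1.21 CPM, beside 0.214, 0 and 1.16 CPM in leukocyte-gated cells. Krt18 was thus near the leukocyte level at 60 min, and its leukocyte values rest on 2, 0 and 19 UMIs. With 2 and 0 such UMIs, the control and 15 min libraries do not settle whether it lay above that level. Over the 3 libraries 8251 Krt8 and 51 Krt18 UMIs were counted, 162 Krt8 UMIs per Krt18 UMI (95% interval 123 to 217). By library the ratio was 126 (95% interval 76.2 to 226), 305 (95% interval 184 to 545) and 85.3 (95% interval 55.6 to 138), on 15, 15 and 21 Krt18 UMIs, and without the platform 15 min library it was 102. Early (S1) and late (S3) proximal cells, gated by segment transporters, held Krt8 at 108, 75.6 and 109 and 111, 83.5 and 88.3 CPM. Before thinning, 46.1%, 43.9% and 43.2% of proximal tubule-gated cells held Krt8 and no Krt18, and after thinning 8.33% over the 3 libraries, against 0.337% of leukocyte-gated cells.

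Distal segments held Krt7. In thick ascending limb-gated cells, the segment that reabsorbs salt without water, Krt7 was at 308, 254 and 221 CPM, Krt8 at 94.8, 54.6 and 85.2 CPM and Krt18 at 14.8, 0 and 14.9 CPM. In distal convoluted tubule-gated cells Krt7 was at 90, 133 and 143 CPM, Krt8 at 64.3, 55.5 and 81.5 CPM and Krt18 at 45, 0 and 39.1 CPM. In each of these gates Krt7 and Krt8 were at least 2-fold above leukocyte-gated cells in each library, beside 15.0% and 12.0% of genes, and none was lower (beside 11.5% and 6.10%). Their platform 15 min sums rest on 68 and 13 cells, and Krt18 had 0 UMIs there. Thinning, before or after gating, left Krt7 alone in the thick ascending limb and neither in the distal convoluted tubule. Krt8 also no longer passed in the distal convoluted tubule without its highest cell in each sum.

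Collecting duct cells held all 3. In principal cell-gated cells, which take up water and sodium, Krt7 was at 603, 331 and 656 CPM, Krt18 at 158, 331 and 193 CPM and Krt8 at 129.7, 82.8 and 173 CPM. In intercalated cell-gated cells, which secrete acid or base, Krt7 was at 638, 642 and 503 CPM, Krt8 at 456, 163 and 119 CPM and Krt18 at 321, 108 and 225 CPM. Krt7 and Krt18 of principal cells (beside 6.68% of genes) and Krt7, Krt8 and Krt18 of intercalated cells (beside 11.7%) were at least 2-fold above leukocyte-gated cells in each library, and none was lower (beside 1.44% and 7.41%). The principal cell sum of the platform 15 min library held 7 cells, and neither call was kept without the cell with the most UMIs, without shared barcodes or after thinning. In intercalated cells thinning left Krt7 alone. Among these 5 segment gates Krt7 was lowest in the proximal tubule and highest in the collecting duct in each library. Between principal and intercalated cells the Krt7 intervals overlapped in the control and 15 min libraries and did not at 60 min (600.1 to 715 against 424 to 592 CPM). The thin limb gate held 4 control and 7 platform 60 min cells, with Krt8 at 2613 and 368 CPM and Krt18 at 2466 and 973 CPM. The 4 urothelial-gated cells held Krt19 at 3380.3, Krt18 at 1954, Krt8 at 1690.2 and Krt7 at 581 CPM.

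**Figure D4:**
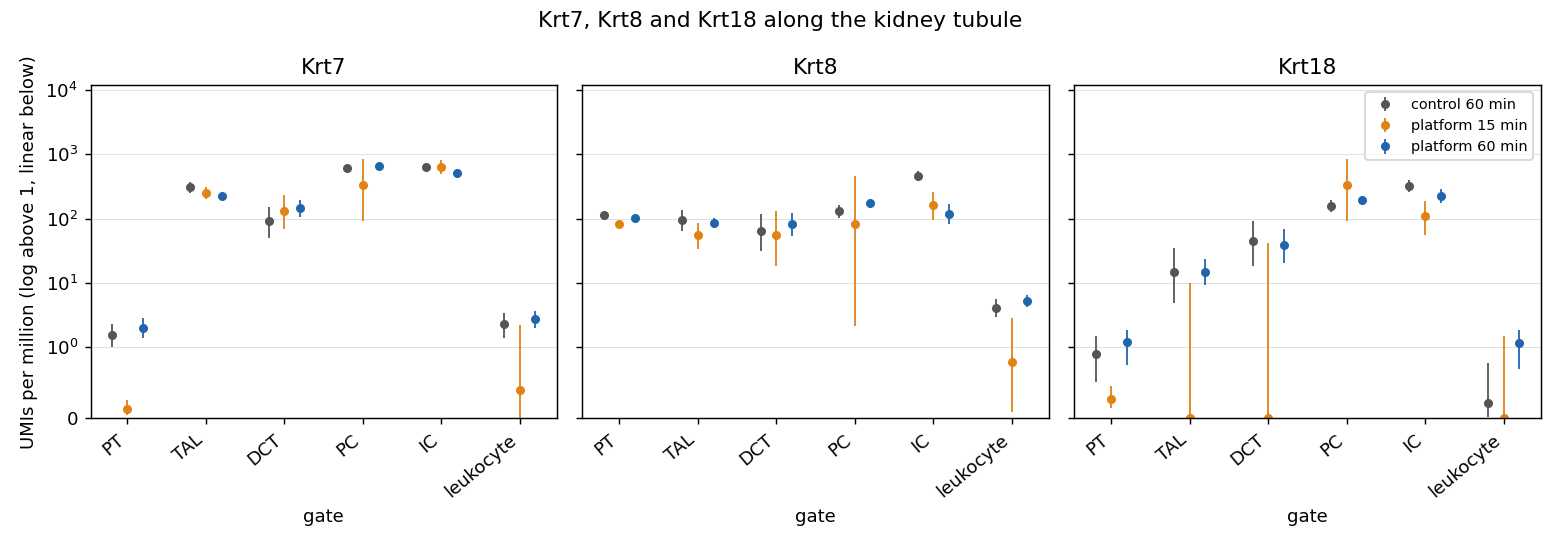
CPM of Krt7, Krt8 and Krt18 in proximal tubule (PT), thick ascending limb (TAL), distal convoluted tubule (DCT), principal (PC), intercalated (IC) and leukocyte gates, by kidney library, with 95% Poisson intervals. Krt8 is at 113, 82.9 and 103 CPM in the proximal tubule while Krt18 is at 0.899, 0.272 and 1.21 CPM, and Krt7 is at 308, 254 and 221 CPM in the thick ascending limb.

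The number of Krt8 UMIs per Krt18 UMI was compared between gates. It is a ratio of RNA counts of 2 genes, and since protein was not measured it does not show how the filament partners were matched. In the tumor it was 0.863, 0.679 and 0.780 in luminal-gated, 0.732, 0.736 and 0.756 in basal-gated and 1.11, 0.931 and 1.17 in kallikrein-gated cells. In the kidney, summed over the 3 libraries, it was 162 in proximal tubule-, 6.64 in thick ascending limb-, 2.11 in distal convoluted tubule-, 0.857 in principal cell- and 1.07 in intercalated cell-gated cells. The intercalated value pools 1.42 (95% interval 1.06 to 1.91) in the control, 1.5 (95% interval 0.684 to 3.41) at 15 min and 0.531 (95% interval 0.340 to 0.818) at 60 min, and it was 0.684 without the control. Principal cells were at 0.819 (95% interval 0.586 to 1.14) in the control and 0.894 (95% interval 0.704 to 1.14) at 60 min, and thick ascending limb-gated cells at 6.40 (95% interval 2.48 to 21.0) and 5.70 (95% interval 3.52 to 9.68). The 95% intervals of the summed principal and intercalated values, 0.707 to 1.04 and 0.856 to 1.34, overlapped each other, and that of the distal convoluted tubule was 1.19 to 3.85. Leukocyte-gated kidney cells were at 6.00, on 126 Krt8 and 21 Krt18 UMIs.

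**Figure D5:**
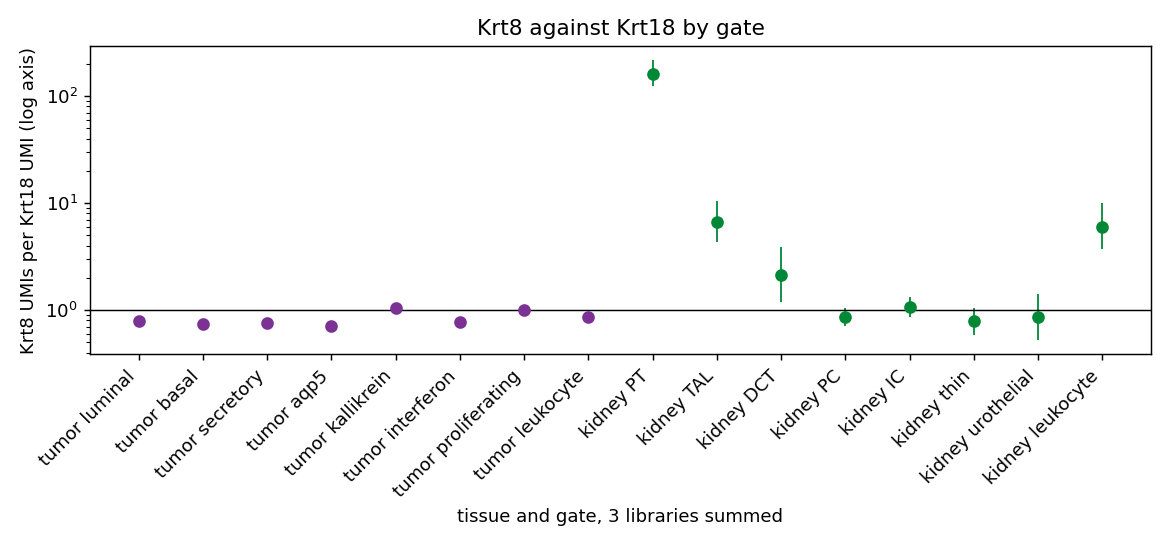
Krt8 UMIs per Krt18 UMI (log axis), summed over the 3 libraries of a tissue, in tumor (purple) and kidney (green) gates, with 95% intervals. Luminal- and basal-gated tumor cells sit at 0.783 and 0.742 and the principal cell gate at 0.857, and the proximal tubule gate at 162.

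Across the kidney libraries, Krt7 was at 24.6, 3.79 and 28.2 CPM, Krt18 at 14.7, 0.814 and 8.62 CPM and Krt19 at 1.22, 0.163 and 0.841 CPM in all cells, and at 15 min these 3 passed 2-fold lower than the control, beside 28.5% of genes, and none higher (beside 2.23%). The ratios were 0.154 (95% interval 0.133 to 0.178) for Krt7, 0.0553 (95% interval 0.0405 to 0.0741) for Krt18 and 0.134 (95% interval 0.0597 to 0.271) for Krt19. That library held 7 principal cell- and 18 intercalated cell-gated cells among 8390. Krt8 was at 83.6, 78.4 and 51.6 CPM. No keratin passed at 60 min, beside 10.5% higher and 1.18% lower. Within proximal tubule-gated cells the Krt8 ratios were 0.732 (95% interval 0.693 to 0.772) and 0.908 (95% interval 0.851 to 0.970). Krt7 and Krt18 passed 2-fold lower there at 15 min, beside 2.24% of genes. Krt7 was below its level in leukocyte-gated cells, and Krt18 had 15 UMIs in each library compared. Both were also lowest at 15 min in leukocyte-gated cells, and the part of free RNA was not tested. None was higher at 15 min (beside 0.901%), and at 60 min none passed (beside 5.83% higher and 0.367% lower). In thick ascending limb-gated cells Krt7 stood at 0.824 (95% interval 0.616 to 1.10) and 0.718 (95% interval 0.573 to 0.907) times the control and no keratin passed at 15 min (beside 3.26% higher and 5.83% lower) or at 60 min (beside 8.74% and 3.30%). In principal cell-gated cells, compared at 60 min alone, Krt7 stood at 1.09 (95% interval 0.944 to 1.26), Krt8 at 1.33 (95% interval 0.987 to 1.81) and Krt18 at 1.22 (95% interval 0.927 to 1.61) times the control, with none past 2-fold (beside 3.42% higher and 2.31% lower).

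The network list was set against leukocyte-gated kidney cells in the same way. In the proximal tubule 4 of 15 genes tested were higher in each library (Pkp2, Evpl, Perp and Lama3) and 6 lower (Pkp3, Plec, Dst, Lamb3, Vim and Lmnb1), beside 18.5% and 29.7% of all genes. In the thick ascending limb 4 of 14 were higher (Dsp, Pkp2, Perp and Dst) and 3 lower (Lamb3, Vim and Lmnb1), beside 15.0% and 11.5%. In principal cells 3 of 16 were higher (Jup, Itga6 and Dst) and 1 lower (Vim), beside 6.68% and 1.44%. In the distal convoluted tubule 3 of 10 were higher and 1 lower, beside 12.0% and 6.10%. In intercalated cells 0 of 12 were higher and 2 lower, beside 11.7% and 7.41%. Plakophilin 2, Pkp2, stood at 95, 21.6 and 22.8 times the leukocyte level in the proximal tubule. The genes most like the kidney keratins over 15 sums were Krt7 by Tspan1, Tfap2b and Wfdc2 (r 0.990 to 0.988), Krt8 by Cystm1, Igsf5 and Kif21a (r 0.990 to 0.981) and Krt18 by Btc, Calb1 and S100g (r 0.977 to 0.957). Sums of fewer than 50 cells were left out, so none of intercalated cells (45, 18 and 45 cells) was among them. The distal convoluted tubule entered with its 60 min sum alone (51 cells). Krt18 passed 1 CPM in 7 of the 15 sums. Krt19, Krt15 and Krt20 passed 1 CPM in 4, 0 and 0 of the 15 sums, and theirs were Znrf3, Fam228b and Slc39a13, then Gla, Metrnl and Hspa5, then Hypk, Srp9 and Isoc2a. The other keratins with the most kidney UMIs were Krt10 (2660), Krt80 (643, highest in intercalated cells at 84.1 CPM), Krt83 (187), Krt222 (169) and Krt23 (31).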

How the data were processed

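Dissociated cells of 3 kidney and 3 mammary tumor libraries were captured in droplets with 3′ chemistry. The deposited matrices hold whole UMI counts per gene and cell, which the authors made with Cell Ranger 3.1.0 on mm10 and combined over the libraries of a tissue with depths equalised by subsampling, so depth per library is after that step. The rest was computed here with Python 3.11.15, NumPy 2.4.6, pandas 2.3.3, SciPy 1.17.1 and Matplotlib 3.10.9. The study's limits on cells were applied: at least 200 genes, at most 4000 (tumor) or 3000 (kidney), and at most 25% or 50% mitochondrial UMIs. No doublet caller was run; the upper limit on genes stands, and 361 tumor and 491 kidney cells positive for more than 1 class were set aside. Gates used summed marker UMIs: at least 10 from at least 3 genes in the tumor or 2 in the kidney, and 20 from 3 for the proximal tubule without Kap. Gate minimums were set after marker counts, not keratin values, were seen. The members, marker lists and network list were chosen with earlier results of these data known.

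Counts were summed over the cells of a gate and library and scaled to CPM. A ratio of 2 fixed the size called, in each of 3 libraries where gates were compared, in genes with at least 20 UMIs. The 3 libraries of a tissue are 3 conditions, not replicates; per the study's reporting summary they share a source mouse, and there is no test. A ratio against 0 UMIs used 3 counts as a floor. Shares of cells were taken after each cell was thinned to 1000 UMIs with a fixed seed. Named genes were all 9 keratins, the 5 other keratins with the most UMIs in each tissue, the 3 genes most like each keratin, and called genes of a fixed network list, of which 1 is not reported here. Alternatives were another scaling, no cell filter, doubled gate minimums, thinning, other basal gates, and leaving out each library, the highest cell or shared barcodes. The procedure was tested on simulated data.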

Additional observations from a re-analysis of the deposited data

Results flagged for a closer look

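The platform-to-control difference of Krt19 had opposite signs in the gates of the tumor. In basal-gated cells its log2 ratio was 0.58 at 15 min and 0.68 at 60 min, and in luminal-gated cells -0.11 and -0.17. Both platform libraries lay above the control in one gate and below it in the other. The difference between the gates was not tested, since each condition had 1 library, and the basal-gated control rests on 54 cells.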

How the results depend on the processing

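No paired analysis was possible because each condition had 1 library. Of 396 counts and shares under an alternative setting, 350 stayed within 1.5 times or the counting interval. Counts of 0 that stayed at 0 are among the 350, so this number does not measure how stable the counts above 0 were. Values below are numbers of keratins past 2-fold against the main number, and causes were not tested. With no cell filter, the numbers became 1 higher and 1 lower in the tumor at 15 min (0 and 0), 1 lower in basal-gated cells at 15 min and 2 at 60 min (0 and 0), 5 lower in the kidney at 15 min (3) and 1 at 60 min (0), and 4 lower in the proximal tubule at 15 min (2). With gate minimums doubled, 1 was lower in basal- than luminal-gated cells (0), 1 higher in luminal-gated cells at 60 min (2) and 1 higher in principal cells (2). Thinning before gating left 0 lower in secretory-gated cells (4), 0 lower in luminal-gated cells at 15 min (3), and higher numbers of 0 in the distal convoluted tubule (2), 1 in intercalated cells (3), 0 in principal cells (2), 0 in the proximal tubule (1) and 1 in the thick ascending limb (2). Alternatives added after the data were seen follow. Thinning after gating gave 1 lower in basal-gated cells at 60 min (0), 0 lower in luminal-gated cells at 15 min (3), 0, 1, 0 and 1 higher in distal convoluted, intercalated, principal and thick ascending limb cells, and 0 lower in the proximal tubule at 15 min (2). Without the cell with the most UMIs in each sum, 4 were lower in proliferating-gated cells (1) and 1 higher in luminal-gated cells at 60 min (2). In the kidney 1 was then higher in the distal convoluted tubule (2) and 0 in principal cells (2). The log2 ratio of Krt5 in luminal-gated cells at 15 min likewise turned to 0.36 from -2.38. Leaving out cells with shared barcodes gave 2 lower in proliferating-gated cells and 0 higher in principal cells. Lgr6 in the basal gate gave 1 higher over luminal-gated cells (3), 1 higher at 15 min (2) and 2 lower at both times (0). Adding the 75 ungated cells gave 0 higher at 15 min (2) and 1 lower at 60 min (0). The Krt8 to Krt18 ratios without a library were also added after the data were seen. Leaving out each library in turn ranged from 1 to 2 lower in proliferating-gated cells, 2 without the control and 2 without the 60 min library. With no minimum of UMIs, the share of all genes past 2-fold in luminal-gated cells was 4.56% higher at 15 min (2.64%), and 3.44% higher (1.85%) and 3.42% lower (1.49%) at 60 min. The share of cells with basal and luminal keratins, over the 3 libraries, was 4.56% in luminal-gated cells at 1000 UMIs, 7.93% at 2000 and 18.8% unthinned, in basal-gated cells 16.5%, 24.1% and 38.6%, and in leukocyte-gated cells 0.0408% and, unthinned, 0.997%. Scaling without mitochondrial UMIs moved none of these numbers past 1.5 times. Depth limits what the sums of 7 to 54 cells show.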
